A study of Mus musculus with 14 samples.

Results

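The genes described here encode 9 receptors through which transmitters and peptides raise or lower the firing of the locus coeruleus (LC): the orexin receptor gene Hcrtr1, the adrenoceptor genes Adra2a, Adra2c, Adra1a and Adra1b, the opioid and nociceptin receptor genes Oprm1 and Oprl1, the corticotropin-releasing factor receptor gene Crhr1 and the galanin receptor gene Galr1. They were chosen by symbol from what is known of LC physiology, but with earlier results of these data known. All 9 were found among the 55421 mouse genes counted. RNA was sequenced in 14 brainstem libraries from 7 mice. Every mouse carried a Th-Cre transgene, which drives Cre recombinase from the promoter of tyrosine hydroxylase, and a Slc6a2-eGFP/Rpl10a transgene, which tags ribosomes in cells that use the noradrenaline transporter gene. At 2 to 3 months of age, 4 mice (B, C, L and M) received an infusion of P364S mutant tau of human sequence into the LC, and 3 mice (H, I and K) an infusion of enhanced yellow fluorescent protein (EYFP). Each mouse gave an immunoprecipitate (IP), which holds RNA pulled down with the tagged ribosomes, and the total homogenate before it (pre-IP). The groups were therefore tau IP and tau pre-IP (n = 4 each) and EYFP IP and EYFP pre-IP (n = 3 each). The EYFP animals carried the same 2 transgenes as the tau animals, and no uninfused animals were analysed here.

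The LC is a small brainstem nucleus of noradrenergic neurons that sends fibres to most of the brain and is active in wakefulness and stress. Its firing is raised by orexin through the orexin 1 receptor and by corticotropin-releasing factor through its type 1 receptor, and is lowered by noradrenaline itself through alpha 2 autoreceptors, by opioids, by nociceptin and by galanin. The inhibitory receptors couple to Gi and Go proteins, which open inwardly rectifying potassium channels and reduce cyclic AMP. Orexin and alpha 1 receptors couple mainly to Gq and phospholipase C, and the corticotropin-releasing factor receptor to Gs and adenylyl cyclase.

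Library totals ran from 41843489 to 65664551 counts, so the floor of 3 counts lay at 0.0457 to 0.0717 CPM (counts per 1e6 library counts), a limit that reflects counting error alone. No receptor was at 0 in any library. Several libraries stood apart. The RNA integrity number was 4.2 for animal I in EYFP IP and 7.7 to 9 in the others. RNA concentration in the IP was 0.1, 0.8, 0.2 and 0.5 ng per microlitre in tau animals B, C, L and M. It was 2.8, 1.6 and 0.7 in the IP of EYFP animals H, I and K, and 11.4 to 29.9 in pre-IP. The part of RNA concentration in the differences between tau IP and EYFP IP was not tested. Animal K, labelled EYFP, held 398 and 408 counts of the tau construct in its IP and pre-IP, against 2 to 18 in H and I and 3527 to 47177 in the tau libraries. Animal M, labelled female, held 674 and 1153 summed counts of 4 Y-linked genes in its pre-IP and IP. Values without K or M are given where leaving one of them out changed a call, and beside several uncalled differences of Adra2a, Adra2c, Oprm1 and Crhr1. The replicates are different animals, for which the labels also give a sex and a library number.

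RefSeq (GRCm38.p6) promoter entries were found for 7 of the 9 genes. The sequences before a start site are shown for the gene that rose most in IP, Hcrtr1, and for 2 genes that fell, Crhr1 and Adra1b, the latter at both of its starts. Each runs 5′ to 3′ on the strand of the gene and ends at the base before a RefSeq start. Capitals mark the homeodomain core ATTA or the GC box GGGCGG, on either strand.
Hcrtr1, chr4:130138552-130138801, minus strand: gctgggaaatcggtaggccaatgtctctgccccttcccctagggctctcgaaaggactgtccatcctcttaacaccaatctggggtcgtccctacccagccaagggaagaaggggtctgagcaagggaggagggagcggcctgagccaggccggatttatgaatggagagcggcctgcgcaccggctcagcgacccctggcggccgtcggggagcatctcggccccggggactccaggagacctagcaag
Crhr1, chr11:104132531-104132780, plus strand: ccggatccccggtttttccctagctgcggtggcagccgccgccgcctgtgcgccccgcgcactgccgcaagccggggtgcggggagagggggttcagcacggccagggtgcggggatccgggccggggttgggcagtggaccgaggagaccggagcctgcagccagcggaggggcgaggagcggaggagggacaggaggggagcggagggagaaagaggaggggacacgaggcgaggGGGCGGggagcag
Adra1b first start, chr11:43901238-43901487, minus strand: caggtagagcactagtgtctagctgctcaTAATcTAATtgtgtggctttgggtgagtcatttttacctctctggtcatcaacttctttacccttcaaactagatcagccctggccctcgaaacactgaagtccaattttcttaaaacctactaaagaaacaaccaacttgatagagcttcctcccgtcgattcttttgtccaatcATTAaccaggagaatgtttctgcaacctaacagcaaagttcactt
Adra1b second start, chr11:43836490-43836739, minus strand: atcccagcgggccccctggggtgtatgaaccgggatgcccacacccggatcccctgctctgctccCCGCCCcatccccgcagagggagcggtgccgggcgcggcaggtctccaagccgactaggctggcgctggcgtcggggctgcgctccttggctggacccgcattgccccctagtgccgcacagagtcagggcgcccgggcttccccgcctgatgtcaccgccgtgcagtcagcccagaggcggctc
The Hcrtr1 sequence belongs to the second of 3 RefSeq starts, the only one of them that overlapped no counted exon. The GC content was 64% for Hcrtr1, 74.8% for Crhr1 and 72.8% for the second Adra1b start, above that of 80.8%, 95.8% and 94.0% of the 32851 RefSeq sequences of this length. The first Adra1b start had 41.6%, above that of 14.9%. ATTA occurred 3 times before the first Adra1b start, in none of the other printed sequences and in 54.9% of all. GGGCGG was in the sequences of Crhr1 and of the second Adra1b start, not in the other two, and in 32.7% of all. The E box CANNTG (66.2% of all) and the cyclic AMP response core TGACG (17.8% of all) were in none of the 4. These matches describe the letters only.

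Levels were compared between genes as CPM per kb of exonic length. In pre-IP, the nociceptin receptor gene Oprl1 was highest at 29.9 ± 3.04 CPM per kb (SD, n = 7). Crhr1 followed at 12.8 ± 1.82 and Adra1b at 11.3 ± 1.57, and these 2 overlapped. Hcrtr1 had 7.10 ± 1.19 CPM per kb and overlapped with neither neighbour. The alpha 2 receptor genes were next and overlapped with each other, Adra2a at 2.28 ± 1.20 and Adra2c at 2.25 ± 1.31. Galr1 had 0.453 ± 0.101 and Adra1a 0.388 ± 0.0298, again overlapping. The mu opioid receptor gene Oprm1 was lowest at 0.0972 ± 0.0308 CPM per kb. The order in the IP depended on the animal: Hcrtr1 had 79.5, 40.3 and 39.4 CPM per kb in tau animals B, C and L, above Oprl1 at 21.2, 22.4 and 22.1, but 11.2 in M, where Oprl1 had 22.5. In the EYFP IP libraries Hcrtr1 had 5.30 to 7.82 CPM per kb and Oprl1 20.5 to 26.4.

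**Figure D1:**
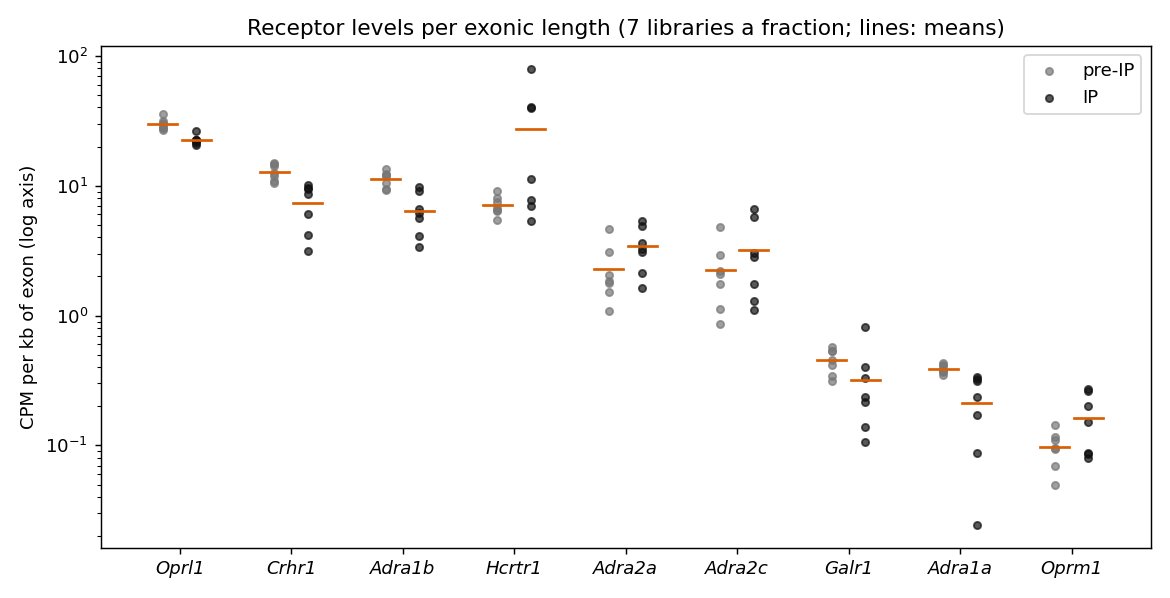
Level of each receptor gene in CPM per kb of exon on a log axis, with a point per library (7 pre-IP in grey, 7 IP in black) and a line at the mean. In pre-IP the genes fall into tiers from Oprl1 (29.9) to Oprm1 (0.0972); Hcrtr1 spreads most in IP, from 5.30 to 79.5.

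The noradrenergic marker genes describe the enrichment reached by each IP. The summed level of Dbh, Th, Slc6a2, Slc18a2 and Phox2a was 482 to 3674 CPM in tau IP, 195 to 249.8 in EYFP IP and 93.8 to 136 in the pre-IP libraries of both treatments, and none of the 5 was at 0 in any library. As log2 IP over pre-IP, their mean was 6.00, 4.92, 4.82 and 2.51 in tau animals B, C, L and M, and 1.16, 1.25 and 0.91 in EYFP animals H, I and K, without overlap. Markers of other cells were mostly lower in tau IP, with overlap between treatments for astrocyte and oligodendrocyte genes and none for those of microglia, of GABA and glycine neurons and of glutamate neurons: the summed level was 408 to 895 CPM in tau IP and 843 to 1111 in EYFP IP for 6 astrocyte genes, 3634 to 10300 and 8822 to 13120 for 6 oligodendrocyte genes, 81.5 to 145 and 151 to 179 for 6 microglia genes, 186 to 336 and 388 to 462 for 4 genes of GABA and glycine neurons, and 129 to 242 and 308 to 362 for 2 genes of glutamate neurons. None of these was at 0 in any library. The sums of 4 endothelial genes, 12.1 to 24.6 and 17.6 to 27.1 CPM, also overlapped, as did those of 3 serotonin genes, 18.4 to 70.1 and 46.6 to 124, and of 3 acetylcholine genes, 20.1 to 57.4 and 45.7 to 74.4. In pre-IP the lists without overlap in IP did overlap between treatments. The sums there were 158 to 186 CPM in tau and 151 to 181 in EYFP animals for microglia genes. They were 293 to 414 and 296 to 380 for genes of GABA and glycine neurons, and 290 to 353 and 329 to 371 for those of glutamate neurons. How the differences in IP arose was not tested, and fewer cells of a type and less RNA per cell cannot be told apart in these libraries. These marker levels move with every difference between tau IP and EYFP IP below, and their part in it was tested only for the noradrenergic markers, as a covariate whose values, given above, do not overlap between the treatments.

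Tau was compared with EYFP in the IP and in the pre-IP, IP with pre-IP over all animals and within each treatment, and the 2 effects of fraction with each other as an interaction. All 9 receptor genes passed the filter on low counts in each fit. In tau IP against EYFP IP, edgeR called 0 of 9 receptors and 0% of the 19472 genes at an adjusted p under 0.05, with 2336 genes at unadjusted p under 0.05, while DESeq2 called 342 genes, Hcrtr1 among them. The groups did not overlap for 3 of the 9, Hcrtr1 (higher in tau), Adra1a and Adra1b (both lower), against 15.6% of all genes. In pre-IP, 0 of 9 receptors and 0% of 19197 genes were called, with 545 at unadjusted p under 0.05 and 0 called by DESeq2, and 0 of 9 were without overlap against 3.12% of genes. In IP against pre-IP over all animals, 1 of 9 rose (15.6% of 19472 genes did) and 4 of 9 fell (14.2%). Within tau animals 2 rose (10.4% of 18949 genes) and 2 fell (10.3%). Within EYFP animals 0 rose (3.96% of 19105 genes) and 0 fell (2.41%), with 0 receptors called by DESeq2. Unadjusted p was under 0.05 there for 4 of 9 receptors and for 4325 of the 19105 genes. With the animal as a block, 2 receptors were called there, and the count over all 19105 genes went from 1218 to 3227. The interaction called 0 of 9 and 0% of 20495 genes, with 1223 at unadjusted p under 0.05 and 52 called by DESeq2. The median log2 change of the 9 was -0.26 in tau IP against EYFP IP (all genes -0.08), 0.023 in pre-IP (all genes -0.00048), and -0.37 in IP against pre-IP over all animals (all genes -0.0036). The comparisons within tau animals, over all animals and between tau and EYFP in IP share the tau IP libraries.

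**Figure D2:**
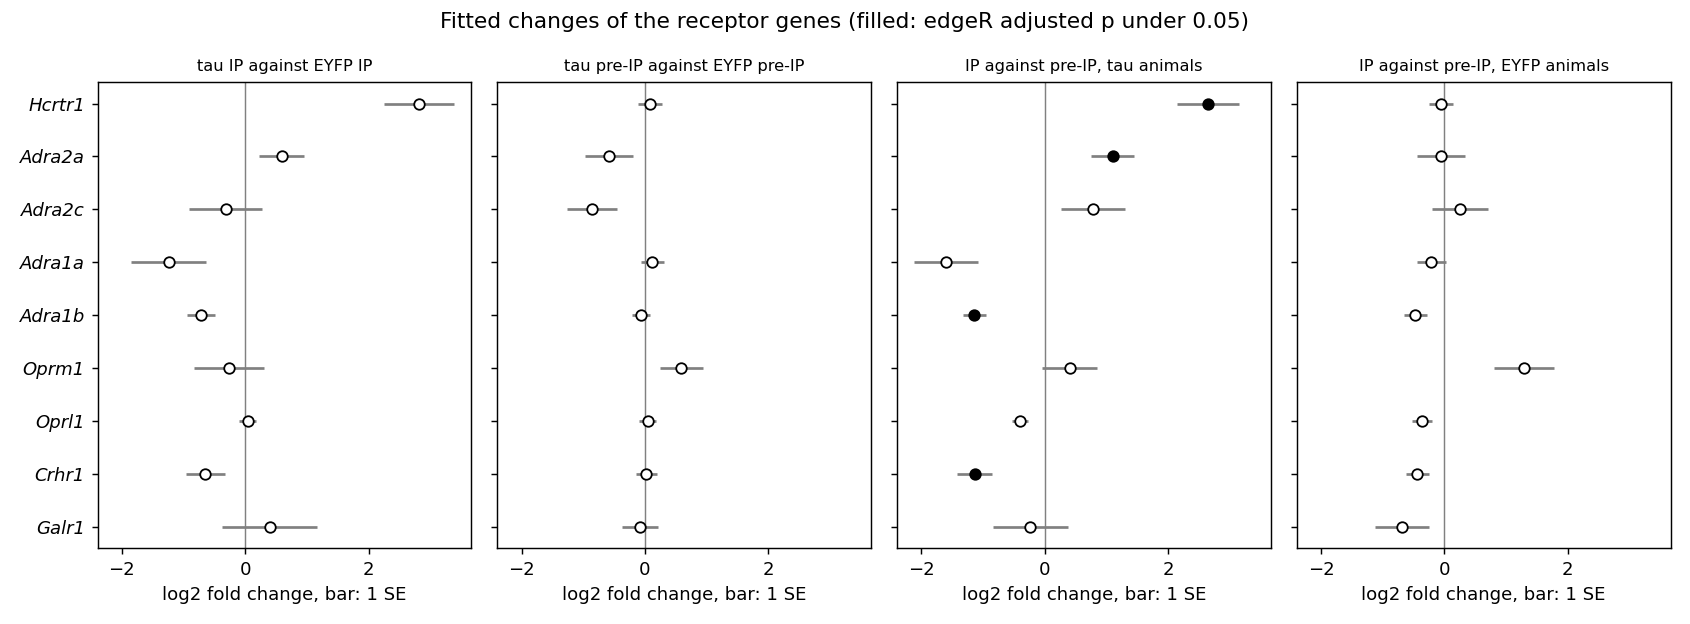
Fitted log2 fold change of each receptor gene with its standard error in 4 comparisons; filled points have an edgeR adjusted p under 0.05. Filled points are Hcrtr1, Adra2a, Adra1b and Crhr1 in IP against pre-IP of tau animals, and there are none in the other 3 panels.

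Hcrtr1 (ENSMUSG00000028778.15, chromosome 4, 130130217 to 130139359, minus strand, GRCm38) encodes the orexin 1 receptor, which excites LC neurons. It had 207, 105, 103 and 29.3 CPM in the tau IP of B, C, L and M, and 20.4, 13.8 and 18.1 CPM in the EYFP IP of H, I and K. In pre-IP it had 16.7, 14.3, 20.8 and 23.7 CPM in the tau animals and 16.8, 19.7 and 17.6 CPM in the EYFP animals. Every tau IP library was above every EYFP IP library, and M was much closer to the EYFP libraries than B, C and L were. The pre-IP groups overlapped.

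Within tau animals Hcrtr1 rose in IP by 2.65 in log2 (SE 0.50, edgeR adjusted p 0.00823). Without C or without L, fits in which edgeR called 0 of all genes, the adjusted p of this change was 0.0684 and 0.0671. Within EYFP animals its change was -0.06 (SE 0.20, edgeR adjusted p 0.902). Over all animals it rose by 1.55 (SE 0.50, edgeR adjusted p 0.0273), and with the animal as a block the change was 1.27 (edgeR adjusted p 0.0817). That call was also lost without B (1.002, edgeR adjusted p 0.0613), without C (1.26, edgeR adjusted p 0.106) and without L (1.36, edgeR adjusted p 0.102). In single animals the log2 IP over pre-IP was 3.84, 2.95, 2.33 and 0.27 in B, C, L and M, and 0.34, -0.52 and -0.0088 in H, I and K, so that M lay below H. In the EYFP animals the Hcrtr1 ratio thus lay on both sides of 0, while the mean of the 5 noradrenergic markers was above 0 in all 3.

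Tau IP exceeded EYFP IP by 2.82 in Hcrtr1 (SE 0.57, edgeR adjusted p 0.318). Hcrtr1 was higher in 4 of 4 tau libraries, but the difference did not pass the threshold. Its adjusted p was the smallest of all genes in this fit, and Adra1b shared it. The unadjusted edgeR p was 0.000685 for Hcrtr1 and 0.0108 for Adra1b. The Hcrtr1 difference passed by DESeq2 (2.87, adjusted p 0.00198) and without a filter on low counts (2.80, edgeR adjusted p 0.00396). It also passed without animal M (3.14, edgeR adjusted p 0.00885). Without K it was 2.84 (edgeR adjusted p 0.571). The interaction, 2.75 (SE 0.62, edgeR adjusted p 0.312), did not pass either, and was 3.17 without M (edgeR adjusted p 0.00361) and 2.71 without the filter (edgeR adjusted p 0.000774). With the noradrenergic enrichment of each animal as a covariate, the difference between tau and EYFP IP was -0.39 (SE 0.39, edgeR adjusted p 0.988). In libraries numbered 11 or lower (B, C, H and I) the mean log2 CPM differed by 3.29, and in those numbered 17 or higher (L, M and K) by 1.59, neither tested alone. With this range of library numbers as a covariate the difference was 2.76 (SE 0.53, edgeR adjusted p 0.199). In pre-IP the change was 0.09 (SE 0.19, edgeR adjusted p 1.0).

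Hcrtr1 was set against 3 noradrenergic genes in the same library, and in the IP its ratio was narrow to 1 of them, Th, the gene of tyrosine hydroxylase. Per kb it stood at 14.6%, 12.8%, 15.6% and 14.97% of Th in the tau IP of B, C, L and M, and at 17.04%, 10.9% and 15.9% in the EYFP IP of H, I and K. The 2 groups overlapped, although Hcrtr1 itself ranged 14.99-fold over the 7 IP libraries. In pre-IP the ratio was higher, 17.9% to 41.9%. Against Dbh, the gene of dopamine beta-hydroxylase, which is found in noradrenergic but not in dopaminergic neurons, the groups did not overlap: Hcrtr1 per kb was 11.9% to 23.5% of Dbh in tau IP and 33.3% to 57.9% in EYFP IP. Against Slc6a2, the noradrenaline transporter gene, they did not overlap either, at 69.0% to 131% in tau IP and 133% to 211% in EYFP IP. In pre-IP Hcrtr1 was 68.5% to 241% of Dbh. These ratios were computed after the levels had been seen and were not tested.

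**Figure D3:**
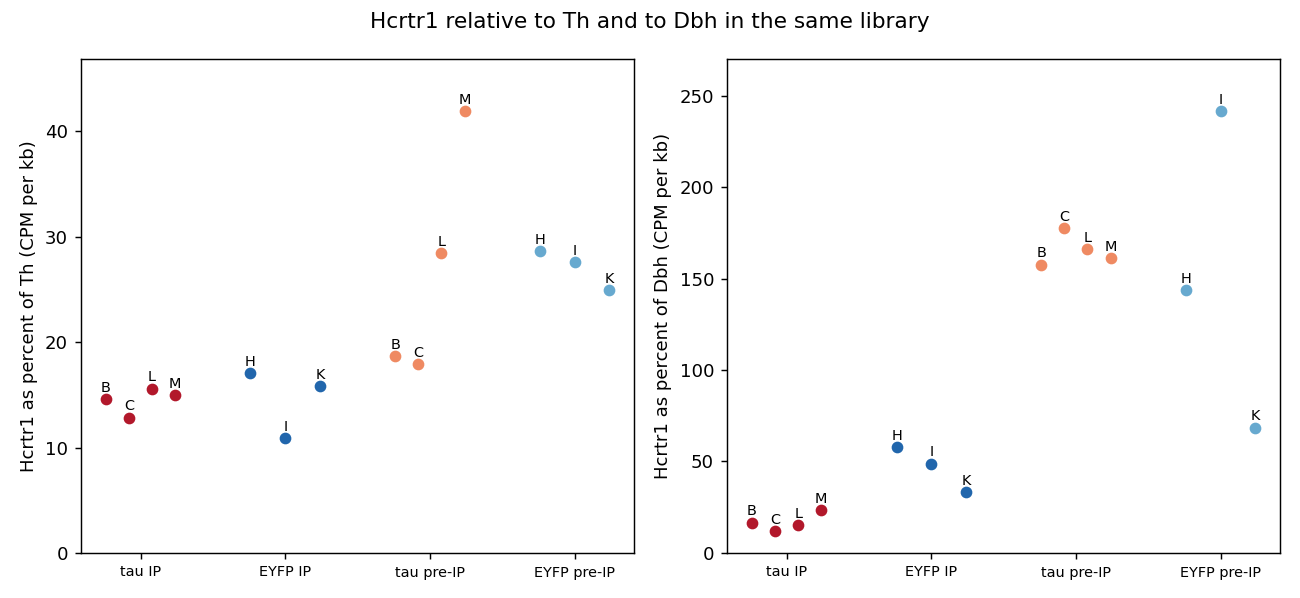
Hcrtr1 as percent of Th (left) and of Dbh (right) in the same library, both in CPM per kb, with a lettered point per animal in each group. The IP ratios to Th lie between 10.9% and 17.04% in both treatments, while the IP ratios to Dbh are 11.9% to 23.5% in tau and 33.3% to 57.9% in EYFP.

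**Figure D4:**
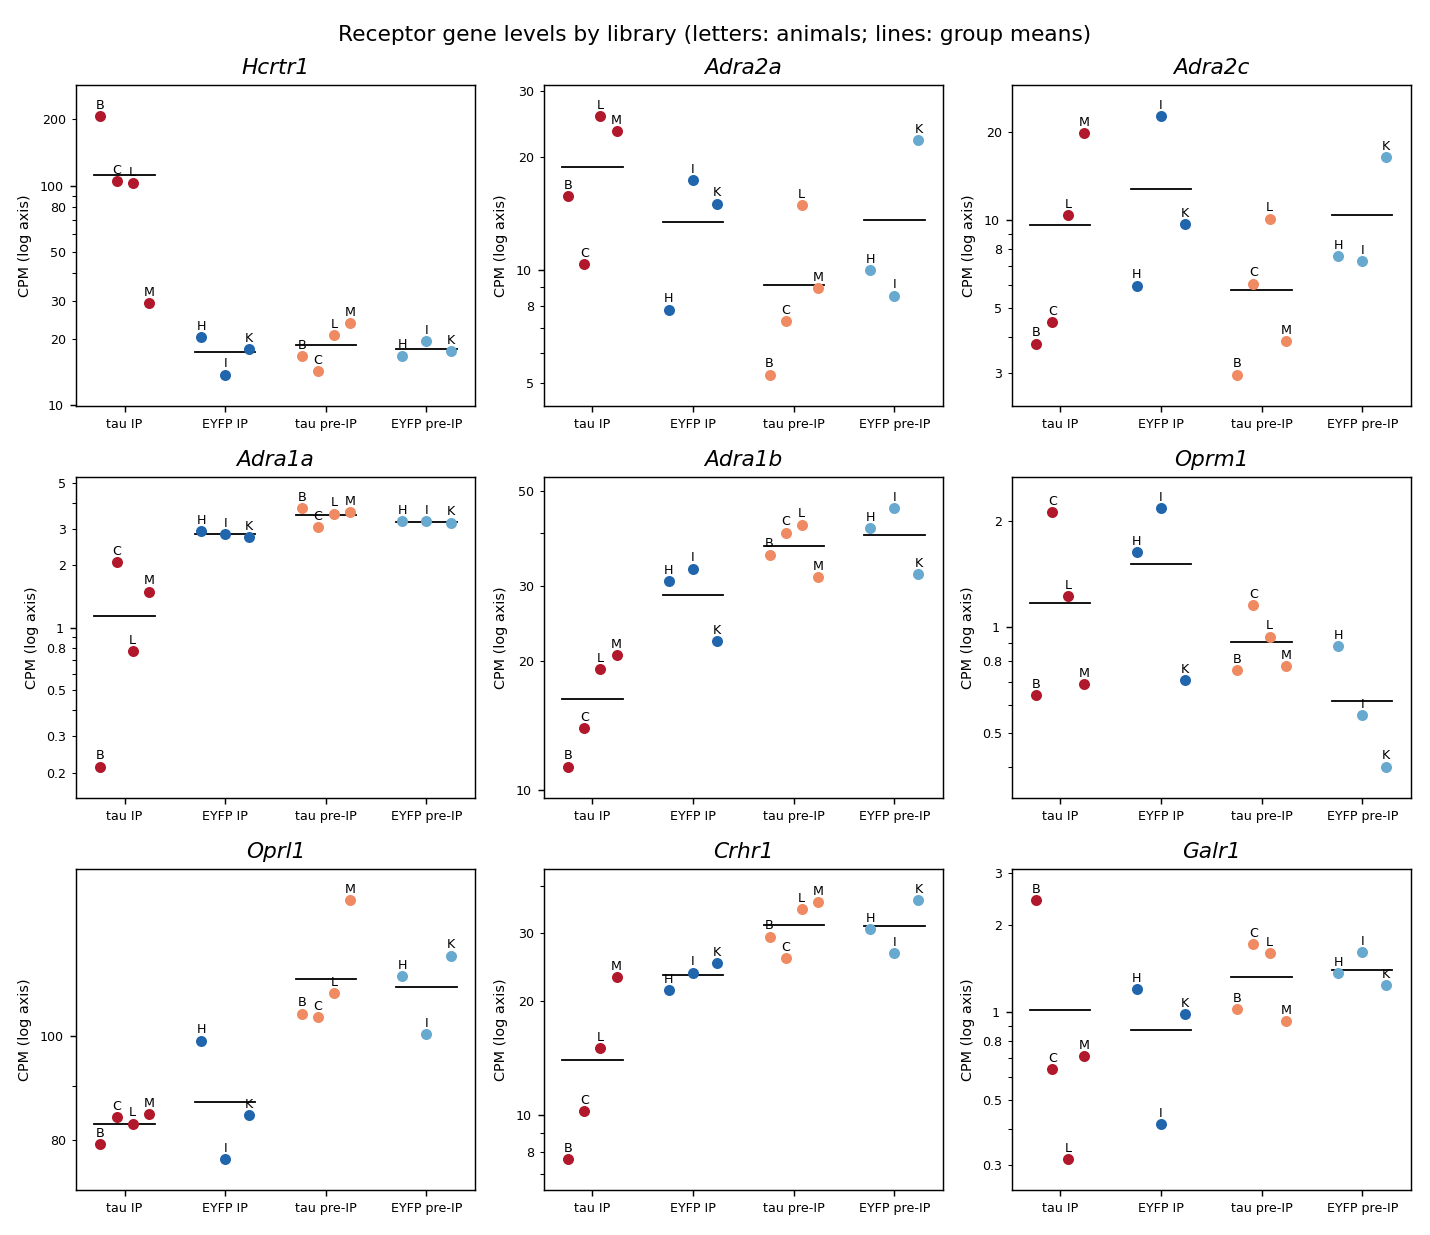
Level of each receptor gene in CPM on a log axis, with a lettered point per animal and a line at the mean of each group. Tau IP stands above EYFP IP without overlap only in Hcrtr1, and below it without overlap only in Adra1a and Adra1b.

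The alpha 2 adrenoceptors are the autoreceptors that slow LC neurons when noradrenaline is released. Adra2a (ENSMUSG00000033717.6, chromosome 19, 54044151 to 54048982, plus strand), the main one, had 15.7, 10.4, 25.8 and 23.5 CPM in the tau IP of B, C, L and M, and 5.25, 7.31, 14.9 and 8.93 CPM in their pre-IP. The IP exceeded the pre-IP in all 4 tau animals, with a log2 ratio of 1.78, 0.58, 0.81 and 1.35. In EYFP animals H, I and K it had 7.83, 17.3 and 15.04 CPM in IP and 9.99, 8.54 and 22.3 CPM in pre-IP, higher in IP in I only.

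Adra2a rose in the IP of tau animals by 1.10 (SE 0.35, edgeR adjusted p 0.0486). This call was lost whichever tau animal was left out (edgeR adjusted p 0.0774 to 0.159), and without C or L edgeR called 0 of all genes. In EYFP animals the change was -0.05 (SE 0.38, edgeR adjusted p 0.956), and the interaction was 1.18 (SE 0.59, edgeR adjusted p 0.820). Over all animals it was 0.62 (SE 0.32, edgeR adjusted p 0.163), and without K 0.88 (edgeR adjusted p 0.0380). Tau against EYFP was 0.59 in IP (SE 0.36, edgeR adjusted p 0.537) and -0.58 in pre-IP (SE 0.38, edgeR adjusted p 1.0), with overlap in both. The pre-IP difference rested on animal K, without which it was 0.032 (edgeR adjusted p 0.997), and without K the interaction was 0.64 (edgeR adjusted p 0.896).

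Adra2c (ENSMUSG00000045318.6, chromosome 5, 35278319 to 35281763, plus strand), which encodes the alpha 2C subtype, ranged widely within each group. Tau IP had 3.79, 4.49, 10.4 and 19.9 CPM in B, C, L and M, and EYFP IP 5.98, 22.7 and 9.72 CPM in H, I and K. In pre-IP it had 2.97, 6.08, 10.1 and 3.87 CPM in the tau animals and 7.55, 7.26 and 16.5 CPM in the EYFP animals. The library of low RNA integrity, I in EYFP IP, was the highest of all 14. Tau against EYFP was -0.32 in IP (SE 0.59, edgeR adjusted p 0.853) and -0.86 in pre-IP (SE 0.41, edgeR adjusted p 1.0). Without M the IP difference was -0.93 (edgeR adjusted p 0.393), and without I its sign turned, at 0.36 (edgeR adjusted p 0.911). Without K the pre-IP difference was -0.31 (edgeR adjusted p 0.994). IP against pre-IP was 0.57 over all animals (SE 0.40, edgeR adjusted p 0.304), and 0.16 without M (edgeR adjusted p 0.798). Both alpha 2 genes have a single exon block in the deposited gene models, whereas the other 7 receptors have 3 to 22. The highest pre-IP library exceeded the lowest 4.24-fold in Adra2a and 5.54-fold in Adra2c, against 1.24-fold to 2.88-fold in the other 7.

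The alpha 1 adrenoceptors are excitatory and respond to noradrenaline. Adra1b (ENSMUSG00000050541.14, chromosome 11, 43774606 to 43901210, minus strand) had 11.4, 13.95, 19.2 and 20.7 CPM in the tau IP of B, C, L and M, and 30.8, 32.9 and 22.3 CPM in the EYFP IP of H, I and K. In pre-IP it had 35.5, 40.0, 41.8 and 31.5 CPM in the tau animals and 40.9, 45.6 and 31.9 CPM in the EYFP animals. It was lower in IP than in pre-IP in 7 of 7 animals. Over all animals it fell by 0.84 (log2) in IP (SE 0.15, edgeR adjusted p 0.000782), and the call held without each animal in turn. Within tau animals it fell by 1.14 (SE 0.18, edgeR adjusted p 0.00578), with an adjusted p of 0.0619 without C and 0.0640 without L. These fits without C and without L called 0 of all genes.

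Within EYFP animals the change of Adra1b was -0.47 (SE 0.19, edgeR adjusted p 0.174), and with the animal as a block it passed at the same size (edgeR adjusted p 0.0401). Every tau IP library lay below every EYFP IP library. The difference of -0.71 (SE 0.23, edgeR adjusted p 0.318) did not pass, nor did the interaction of -0.64 (SE 0.27, edgeR adjusted p 0.816). It was -1.18 in mean log2 CPM in libraries numbered 11 or lower and -0.17 in those numbered 17 or higher, and with that range as a covariate the fitted difference was -0.77 (edgeR adjusted p 0.226). With the noradrenergic enrichment as a covariate it was -0.14 (edgeR adjusted p 0.995).

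Adra1a (ENSMUSG00000045875.13, chromosome 14, 66635251 to 66771168, plus strand) was scarce and nearly constant outside the tau IP. It had 0.21, 2.07, 0.77 and 1.49 CPM in the tau IP of B, C, L and M, from 12, 97, 39 and 78 counts. The EYFP IP of H, I and K had 2.92, 2.81 and 2.73 CPM, and the 7 pre-IP libraries 3.04 to 3.77 CPM. All 4 tau IP libraries were below all others. Over all animals it fell by 0.98 in IP (SE 0.36, edgeR adjusted p 0.0480). This call was lost with the animal as a block (-1.09, edgeR adjusted p 0.0624) and without C, L, M, I or K (edgeR adjusted p 0.0568 to 0.151). Within tau animals the change was -1.59 (SE 0.52, edgeR adjusted p 0.0539), and -1.89 with the block (edgeR adjusted p 0.0452) and -1.23 without B (edgeR adjusted p 0.0454). The change there was -1.58 by DESeq2 (adjusted p 0.0118) and -1.58 at a mean of at least 50 counts (edgeR adjusted p 0.0466). Within EYFP animals it was -0.21 (SE 0.24, edgeR adjusted p 0.674). Tau IP against EYFP IP was -1.24 (SE 0.61, edgeR adjusted p 0.449), and the interaction -1.36 (SE 0.63, edgeR adjusted p 0.820).

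**Figure D5:**
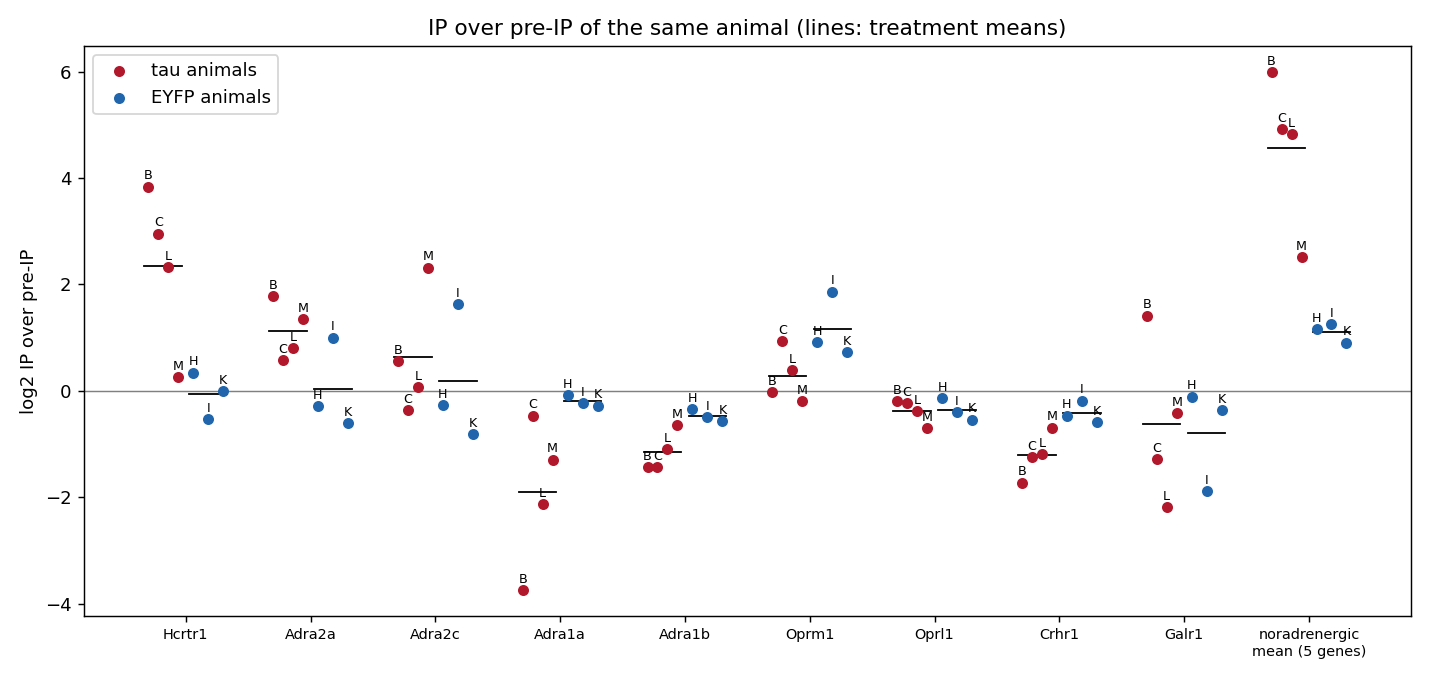
Log2 of IP over pre-IP of the same animal for each receptor gene and, at the right, the mean of 5 noradrenergic marker genes, with tau animals in red and EYFP animals in blue. Adra1a, Adra1b, Oprl1 and Crhr1 are below 0 in all 7 animals; Hcrtr1 of animal M (0.27) lies among the EYFP animals although its noradrenergic mean (2.51) is above theirs.

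Of the opioid family, Oprm1 (ENSMUSG00000000766.18, chromosome 10, 6758506 to 7038198, plus strand) encodes the mu receptor, through which morphine silences LC neurons. Its level was 0.40 to 2.17 CPM over the 14 libraries. It had 0.64, 2.12, 1.22 and 0.69 CPM in the tau IP of B, C, L and M, and 1.63, 2.17 and 0.71 CPM in the EYFP IP of H, I and K. In pre-IP it had 0.75, 1.15, 0.94 and 0.77 CPM in the tau animals and 0.88, 0.56 and 0.40 CPM in the EYFP animals, from 22 to 60 counts. Its IP was above its pre-IP in all 3 EYFP animals, with log2 ratios of 0.92, 1.87 and 0.72, and in 2 of 4 tau animals. The change within EYFP animals was 1.29 (SE 0.48, edgeR adjusted p 0.137), and 1.22 with the animal as a block (edgeR adjusted p 0.0498). Within tau animals it was 0.41 (SE 0.44, edgeR adjusted p 0.559), and over all animals 0.80 (SE 0.34, edgeR adjusted p 0.0897). Tau against EYFP was -0.26 in IP (SE 0.57, edgeR adjusted p 0.874) and 0.59 in pre-IP (SE 0.34, edgeR adjusted p 1.0), and without K -0.62 and 0.39 (edgeR adjusted p 0.789 and 0.994). Without M the IP difference was -0.076 (edgeR adjusted p 0.965), and without I, the library of low RNA integrity, its sign turned, at 0.080 (edgeR adjusted p 0.985). Oprm1 overlaps Ipcef1 on the other strand and the use of strand in the counting is not given in the sources used here, so its counts are uncertain.

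Oprl1 (ENSMUSG00000027584.17, chromosome 2, 181715016 to 181720985, plus strand), the gene of the inhibitory nociceptin receptor, was the steadiest of the 9 in the IP. It had 79.4, 84.1, 83.0 and 84.6 CPM in the tau IP of B, C, L and M, and 99.1, 76.9 and 84.5 CPM in the EYFP IP of H, I and K. In pre-IP it had 105, 104, 110 and 134 CPM in the tau animals and 114, 100.5 and 119 CPM in the EYFP animals. All 7 IP libraries were below all 7 pre-IP libraries. It fell in IP by 0.37 over all animals (SE 0.10, edgeR adjusted p 0.00897). The changes within tau animals, -0.40 (SE 0.13, edgeR adjusted p 0.0578), and within EYFP animals, -0.36 (SE 0.16, edgeR adjusted p 0.206), did not pass by edgeR. By DESeq2 the change within tau animals passed (-0.37, adjusted p 0.0442). The interaction was -0.0022 (SE 0.20, edgeR adjusted p 0.999). Tau against EYFP was 0.04 in both IP (SE 0.14, edgeR adjusted p 0.931) and pre-IP (SE 0.14, edgeR adjusted p 1.0).

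Crhr1 (ENSMUSG00000018634.10, chromosome 11, 104132855 to 104175523, plus strand) encodes the receptor through which corticotropin-releasing factor excites the LC in stress. It had 7.69, 10.3, 14.99 and 23.0 CPM in the tau IP of B, C, L and M, and 21.3, 23.7 and 25.1 CPM in the EYFP IP of H, I and K. In pre-IP it had 29.4, 25.8, 34.7 and 36.2 CPM in the tau animals and 30.8, 26.6 and 36.7 CPM in the EYFP animals. Every IP library was below every pre-IP library, and among the tau IP libraries M lay within the EYFP range. It fell in IP by 0.82 over all animals (SE 0.20, edgeR adjusted p 0.00573). In tau animals alone it fell by 1.13 (SE 0.29, edgeR adjusted p 0.0214). Without C the edgeR adjusted p there was 0.0925 and without L 0.115, in fits that called 0 of all genes. Within EYFP animals the change was -0.44 (SE 0.18, edgeR adjusted p 0.190). Tau IP against EYFP IP was -0.65 (SE 0.32, edgeR adjusted p 0.443), without M -0.99 (edgeR adjusted p 0.125), and with the noradrenergic enrichment as a covariate 0.65 (edgeR adjusted p 0.988). In pre-IP it was 0.023 (SE 0.17, edgeR adjusted p 1.0), and the interaction was -0.67 (SE 0.38, edgeR adjusted p 0.824).

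Galr1 (ENSMUSG00000024553.8, chromosome 18, 82392380 to 82406777, minus strand) encodes an inhibitory galanin receptor. It had 2.42, 0.64, 0.32 and 0.71 CPM in the tau IP of B, C, L and M, and 1.20, 0.41 and 0.99 CPM in the EYFP IP of H, I and K, from 16 to 136 counts. In pre-IP it had 1.03, 1.71, 1.60 and 0.93 CPM in the tau animals and 1.36, 1.60 and 1.24 CPM in the EYFP animals. Animal B was the only one with more Galr1 in IP than in pre-IP. IP against pre-IP was -0.41 over all animals (SE 0.41, edgeR adjusted p 0.490), and -0.99 without B (edgeR adjusted p 0.0264). Tau IP against EYFP IP was 0.40 (SE 0.77, edgeR adjusted p 0.859), and without B -0.58 (edgeR adjusted p 0.791).

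Of 11 genes of peptides that act on these receptors or of their precursors, 9 were tested and 1 was called, Gal, the gene of galanin, which LC neurons make themselves. This 1 riser was 11.1% of the 9 in IP against pre-IP over all animals, within tau and within EYFP animals. Of all genes 15.6%, 10.4% and 3.96% rose in these comparisons. Gal rose in IP by 3.15 over all animals (SE 0.69, edgeR adjusted p 0.00288), by 4.65 within tau animals (SE 0.60, edgeR adjusted p 0.00478) and by 0.90 within EYFP animals (SE 0.17, edgeR adjusted p 0.0162). It had 573 ± 441 CPM in tau IP (SD, n = 4), 43.9 ± 5.66 in EYFP IP (n = 3), 24.6 ± 4.12 in tau pre-IP and 23.3 ± 1.67 in EYFP pre-IP. The other 8 tested were called in none of the 6 comparisons. In tau IP against EYFP IP, Gal was higher by 3.86 (SE 0.68, edgeR adjusted p 0.318) and Pdyn, the prodynorphin gene, by 0.94 (SE 0.39, edgeR adjusted p 0.394), the smallest p-values of the list. The orexin precursor gene Hcrt had 14.9 ± 15.4 CPM in tau IP and 27.8 ± 24.5 in EYFP IP, and the opioid precursor gene Penk 181 ± 54.3 and 224 ± 45.0. In the pre-IP of tau and EYFP animals Hcrt had 14.5 ± 12.1 and 18.8 ± 17.4 CPM, and Penk 223 ± 15.3 and 188 ± 40.2. Single libraries of Hcrt ran from 1.21 to 35.2 CPM in tau IP and from 0.231 to 47.0 in EYFP IP, with overlap.

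Among 10 close relatives of the 9 receptors, 8 were tested. Over all animals 0 rose and 1 fell in IP, where 15.6% and 14.2% of all genes did. Oprd1, the delta opioid receptor gene, fell by 1.35 (SE 0.33, edgeR adjusted p 0.00624). Within tau animals Oprd1 fell by 1.80 (SE 0.37, edgeR adjusted p 0.0112), and within EYFP animals none was called. The smallest p-values in tau IP against EYFP IP were those of Crhr2, the type 2 corticotropin-releasing factor receptor gene, at -1.74 (SE 0.52, edgeR adjusted p 0.318), and of Adra1d at -1.78 (SE 0.71, edgeR adjusted p 0.376). Crhr2 had 1.02 ± 0.534 CPM in tau IP and 3.59 ± 0.862 in EYFP IP. The second orexin receptor gene, Hcrtr2, had 3.83 ± 2.33 CPM in tau IP and 5.77 ± 0.332 in EYFP IP, and 5.003 ± 1.10 and 5.35 ± 0.915 in the pre-IP of tau and EYFP animals.

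Other transmitter receptors described on LC neurons formed a list of 30, all tested, with 2 higher and 6 lower in IP over all animals, or 6.67% and 20.0% against 15.6% and 14.2% of all genes. The 2 that rose were nicotinic subunit genes, Chrna6 by 1.77 (SE 0.43, edgeR adjusted p 0.00542) and Chrnb3 by 1.44 (SE 0.43, edgeR adjusted p 0.0197). Among the 6, Htr1a, the serotonin 1A receptor gene, fell by 1.22 (SE 0.24, edgeR adjusted p 0.00162), Hrh2, a histamine receptor gene, fell by 0.91 (SE 0.16, edgeR adjusted p 0.000672), and Adora1, an adenosine receptor gene, fell by 0.81 (SE 0.19, edgeR adjusted p 0.00449). Within tau animals 3 rose and 5 fell (10.4% and 10.3% of all genes did), with Sstr2, an inhibitory somatostatin receptor gene, added to the risers at 1.61 (SE 0.41, edgeR adjusted p 0.0206). Sstr2 had 44.3 ± 25.7 CPM in tau IP and 14.3 ± 2.53 in EYFP IP. Within EYFP animals 1 rose, the serotonin receptor gene Htr2c by 0.67 (SE 0.17, edgeR adjusted p 0.0401), and 3 fell: Htr1a, Chrna7 and Chrnb2 fell by 0.95, 0.89 and 0.68 (edgeR adjusted p 0.0423, 0.0362 and 0.0395), beside 3.96% and 2.41% of all genes. In tau IP against EYFP IP none was called. The smallest p-values were those of Chrna6 at 2.18 (SE 0.55) and Chrnb3 at 2.02 (SE 0.51), both with an edgeR adjusted p of 0.318.

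The G proteins, channels and enzymes below the receptors were 34 genes, all tested, of which 8 rose and 8 fell in IP over all animals, or 23.5% each way against 15.6% and 14.2% of all genes. The largest rises were those of Plcb4 and Plcb1, phospholipase C genes on the Gq path, by 1.01 (SE 0.19, edgeR adjusted p 0.000994) and 0.91 (SE 0.13, edgeR adjusted p 0.000127), and of Gnas, which encodes Gs alpha, by 0.88 (SE 0.21, edgeR adjusted p 0.00530). The adenylyl cyclase genes Adcy3, Adcy8 and Adcy6 fell by 1.13, 1.07 and 0.72 (edgeR adjusted p 9.48e-05, 0.000766 and 0.0376). Adcy2, also an adenylyl cyclase gene, rose by 0.62 (SE 0.12, edgeR adjusted p 0.00103). Within tau animals 6 rose and 4 fell (10.4% and 10.3% of all genes), and within EYFP animals 2 rose, Plcb4 and Plcb1, and 2 fell, Adcy3 and Adcy8 (3.96% and 2.41% of all genes). Of the potassium channel subunits that the inhibitory receptors open, Kcnj9 fell over all animals by 0.45 (SE 0.14, edgeR adjusted p 0.0257). In tau against EYFP none of the 34 was called in either fraction.

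Of 19 regulators of receptor signalling, 2 rose and 4 fell in IP over all animals, or 10.5% and 21.1% against 15.6% and 14.2% of all genes. Rgs17, which shortens Gi signals, rose by 1.47 (SE 0.14, edgeR adjusted p 2.02e-05), and Rgs2, which acts mainly on Gq, by 0.57 (SE 0.12, edgeR adjusted p 0.00186). Rgs8, the receptor kinase gene Grk3 and the arrestin gene Arrb1 fell by 1.03, 0.97 and 0.91 (edgeR adjusted p 0.000469, 7.46e-05 and 0.00111). Rgs17 rose in both treatments taken alone, by 1.37 in tau animals (SE 0.18, edgeR adjusted p 0.00478) and by 1.58 in EYFP animals (SE 0.21, edgeR adjusted p 0.00688), with 75.0 ± 12.99 CPM in tau IP and 76.7 ± 18.7 in EYFP IP. Grk3 and Arrb1 fell by 1.07 and 1.16 in tau animals (edgeR adjusted p 0.00556 and 0.0130) and fell by 0.86 and 0.60 in EYFP animals (edgeR adjusted p 0.0292 and 0.0457). The lists were drawn up with earlier results of these libraries known, so their directions are no independent evidence. Over all animals the median log2 change in IP was -0.30 for the relatives, 0.24 for the peptides and precursors, -0.29 for the other receptors, -0.033 for the G proteins, channels and enzymes and 0.0019 for the regulators, against -0.0036 for all genes. In tau IP against EYFP IP the medians were -0.78, -0.22, -0.37, -0.18 and -0.20 in the same order, against -0.08 for all genes.

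The genes whose log2 CPM followed each receptor most closely over the 14 libraries were taken from 20495 genes by Pearson's r, as a description, since the libraries share their groups and the r of the nearest genes is high by selection. Hcrtr1 was nearest to Cyb561 (r = 0.990), the gene of a cytochrome of catecholamine vesicles, then Garin5a (0.989) and D930028M14Rik (0.987). Adra2a was nearest to Shc2 (0.946), and Adra2c to Rbm15b (0.987), Csnk1g2 (0.981) and Pex6 (0.980). Rbm15b has, like Adra2c, 1 exon block, but Csnk1g2 has 8 and Pex6 18. Shc2, nearest to the single-exon gene Adra2a, has 12. Adra1a was nearest to Loxl2 (0.981), Adra1b to Vps37b (0.989), Crhr1 to Ripor3 (0.984), Oprl1 to Anks1 (0.960), Oprm1 to Nr2f1 (0.896) and Galr1 to Trim75 (0.894). The nearest gene was thus at 0.946 or above for 7 of the receptors and below 0.9 for Oprm1 and Galr1.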

How the data were processed

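The authors deposited raw counts of reads per gene for each library, as whole numbers without any scaling. Reads were handled with FastQC, Trim Galore, STAR and featureCounts on GRCm38, per the submitters' processing notes, and poly(A) RNA was made into libraries with SMART-Seq v4 and Nextera XT, per the labels' protocols. The use of strand is not given in the sources used here. A deposited sheet of sample data lists, per the file headers, a score of RNA integrity, with RNA concentration and tau construct counts, whose equality with the count table checked the reading of its columns. Symbols, coordinates and exonic lengths came from the deposited gene table.

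Libraries were grouped by the labelled treatment and fraction. Each comparison was fitted to its own libraries in R 4.3.3 with edgeR 4.0.16 (quasi-likelihood F test), with filterByExpr, TMM scaling and Benjamini-Hochberg adjustment over all genes tested, at 0.05. IP against pre-IP over all animals had treatment as an additional term, and the interaction used all 14 libraries. A standard error is the log2 fold change over the square root of F. Ratios of IP to pre-IP used log2 CPM with a prior count of 2. Both fractions come from the same animal, and same-animal libraries deviated together (correlation 0.147 to 0.358 in 7 animals), so the animal as a replicate block was the paired alternative. DESeq2 1.42.0 and the other alternatives are in the closing section. The fits were also run on simulated counts, with libraries drawn independently and so without the pairing by animal. No result given here rests on that run.

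The receptors, the 5 gene lists and the tests were chosen with earlier results of these data known. The text names all 9 receptors, for each the genes nearest by correlation, and from each list the called genes of largest change, up to 3 in each direction, or, with none called, the 2 of smallest p. Dbh, Th and the marker sums were named throughout. Hcrt, Penk, Hcrtr2, Adcy2 and Kcnj9 were named outside this rule after their values were seen. P-values of tau against EYFP measure the spread between these animals. In the main fits of IP against pre-IP and of the interaction, both libraries of an animal counted as separate. Those p-values therefore measure the spread between libraries. With the animal as a block they measure the spread of the differences within animals. Of the gene lists and markers first drawn up, 2 genes are not reported here and were left out of the list counts, the marker sums and the noradrenergic enrichment.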

Additional observations from a re-analysis of the deposited data

How the results depend on the processing

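With 3 or 4 animals a group, leaving out 1 animal changed several counts. For tau IP against EYFP IP, edgeR called 0 genes, DESeq2 342 and an unfiltered fit 113, and 0 to 128 genes across fits that each left out an animal (128 without M). Of the 9 receptors 0 were called, and 1, Hcrtr1, by DESeq2, without the filter and without M. In pre-IP 0 genes were called, 44 without the filter and 0 to 1 across animals left out, and 0 receptors throughout. For the interaction 0 genes were called, 52 by DESeq2, 67 without the filter and 0 to 56 across animals left out, with 0 to 1 receptors (1 without the filter).

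Over all animals IP against pre-IP called 4223 to 5897 genes and 3 to 5 receptors across animals left out, and 3 receptors with the animal as a replicate block. Within tau animals the counts ran from 0 (without C or L) to 3866 genes and from 0 to 4 receptors. Without M, 2608 genes were called. Within EYFP animals 1218 genes were called, 3227 with the replicate block, 2292 by DESeq2, 2164 without the filter and 0 to 385 across animals left out, with 2 receptors under the block and 0 across animals left out. The block changed no other call among the receptors than those given with them. The cause was not tested.

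Signs turned in changes that were not called. With the noradrenergic enrichment as a covariate, tau IP against EYFP IP became -0.39 for Hcrtr1, 1.501 for Adra2c, 0.19 for Adra1a, -0.0044 for Oprl1, 0.65 for Crhr1 and -1.30 for Galr1. Across animals left out it ran from -0.93 to 0.36 for Adra2c, -0.70 to 0.080 for Oprm1, -0.054 to 0.12 for Oprl1 and -0.58 to 0.70 for Galr1. In pre-IP, with the library-number range as a covariate, it became -0.0054 for Hcrtr1, -3.23e-05 for Oprl1 and -0.046 for Crhr1. Across animals left out it ran from -0.057 to 0.21 for Hcrtr1, -0.93 to 0.032 for Adra2a, -0.17 to 0.058 for Adra1b, -0.059 to 0.14 for Oprl1, -0.082 to 0.20 for Crhr1 and -0.22 to 0.051 for Galr1. Within tau animals IP against pre-IP ran from -1.33 to 0.17 for Galr1. Within EYFP animals it ran from -0.26 to 0.16 for Hcrtr1, -0.52 to 0.46 for Adra2a and -0.63 to 0.98 for Adra2c, and was 0.018 for Adra2a with the replicate block. The interaction ran from -0.26 to 1.41 for Adra2c, -0.13 to 0.10 for Oprl1 and -0.65 to 0.90 for Galr1, and for Oprl1 was 0.013 at a mean of at least 50 counts and 0.011 with the block. Size factors of DESeq2 moved the median of all genes in tau IP against EYFP IP from -0.08 to -0.05.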
